A study of Mus musculus with 4 samples.

Results

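The DNA segments described here are TAL1 occupied segments (TAL1 OSs), places where the transcription factor TAL1 was bound in a mouse model of maturing erythroblasts. The study's list holds 4915 of them, and the 1998 at hand (40.7%) were all taken, on chromosomes 1 and 10 to 16 and on the first 37 Mb of chromosome 17. They were 192 to 5114 bp long, with a median of 603 bp. Each was compared with 6 lists of broad peaks of histone H3 lysine 27 acetylation (H3K27ac), and it counted as marked where it overlapped a peak by 1 bp or more.

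H3K27ac was mapped by ChIP-seq in 2 mouse cell lines, in order to weigh it with other features as a sign of enhancers. G1E is an immortalized erythroid progenitor line of strain 129, made from embryonic stem cells in which Gata1 was knocked out, and it was left untreated. G1E-ER4 was made from G1E by adding a hybrid of GATA1 and the estrogen receptor, and it was given 10 nM estradiol over 24 h, which switches the hybrid on (G1E-ER4 + E2). Each state had 2 replicates. Peak lists were deposited for the single replicates and for the pooled pair. Each state is 1 line, and the sources used here do not say whether the replicates were separate cultures, so the spread between them may be technical. Line, hybrid protein and estradiol differ together between the states and cannot be told apart. The cell type was not checked against marker genes, because the lists give positions and no genes.

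TAL1 is a basic helix-loop-helix factor that blood cells need from their earliest precursors onward. In red cell precursors it binds DNA with the zinc finger factor GATA1, through the bridging proteins LMO2 and LDB1, at genes that are switched on as the cells mature. H3K27ac is laid down by the acetyltransferases EP300 and CREBBP and is found at active promoters and enhancers. H3K4me1 is the methylation state typical of enhancers, and H3K4me3 that of promoters. The TAL1 OSs were called in G1E-ER4 + E2 cells, so that their choice used the treated state and not the untreated one.

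Some of the segments were cloned by the authors to test them as enhancers in K562 cells, and PCR primers bound the cloned fragment. The coordinates below are those of the occupied segment, and the primers were not placed on mm9 here. The primers of up to 2 transfected segments of each pattern of H3K27ac are given here, 5′ to 3′, in lower case throughout and with no capitals. For marking in both states the segments were TAL1_1464 (chr14:71023650-71024262) and TAL1_196 (chr1:135029195-135029593).
TAL1_1464 forward: aatttctcacattcctcctccggg
TAL1_1464 reverse: tcctacactctcacccaatcctga
TAL1_196 forward: agaaggtgtccgcctctctctaca
TAL1_196 reverse: tccgagtcctgttccacgtctgatt
For marking in G1E-ER4 + E2 alone they were TAL1_1020 (chr12:29502833-29503567) and TAL1_987 (chr11:121294438-121295272).
TAL1_1020 forward: ccttgtgaacttggaagagtcggt
TAL1_1020 reverse: ataccagggagacaagaaagctgc
TAL1_987 forward: atcagttaagcccgccctcttgat
TAL1_987 reverse: cccagctgactataaagggactagga
For marking in G1E alone they were TAL1_1515 (chr15:8711604-8712036) and TAL1_1578 (chr15:66657521-66658263).
TAL1_1515 forward: ctggtctgtaggtggtgaaag
TAL1_1515 reverse: cattgagcaagcaaactggag
TAL1_1578 forward: aacttctgctggagccacttacca
TAL1_1578 reverse: atacagtgagacatggagcaccca
For marking in neither they were TAL1_63 (chr1:52580875-52581510) and TAL1_1506 (chr14:123430439-123430680).
TAL1_63 forward: gggtcctttacaggttctcaaattgt
TAL1_63 reverse: ttgccacgtaactactgacaccga
TAL1_1506 forward: tgaacttccaggccatctgccttt
TAL1_1506 reverse: ttgattgtggagtgctgcattcgg
All coordinates are on mm9. Genes near the segments are not named, apart from the few cases given further on, since no annotation of mm9 was used here.

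Most TAL1 OSs lay in H3K27ac. In G1E cells, the pooled list marked 1557 of the 1998 segments (77.9%), replicate 1 marked 1513 and replicate 2 marked 1503. In G1E-ER4 + E2 cells, the pooled list marked 1739 (87.0%), replicate 1 marked 1712 and replicate 2 marked 1721. Both treated replicates were above both untreated ones, and the states did not overlap. The mean was 1716.5 ± 6.36 (SD, n = 2) against 1508 ± 7.07 (SD, n = 2), a difference of 208.5 segments or 10.4 percentage points (exact two-sided permutation test, p = 0.333, the smallest that 2 replicates against 2 can give). The same segments moved along their chromosomes by 20 set distances gave a background of 9.14% in a G1E-ER4 + E2 peak and 6.7% in a G1E peak. Marking at the TAL1 OSs was 9.52 times this background in treated cells and 11.6 times in untreated cells. Positions only 10 to 100 kb away were in a peak much more often, 39.5% in G1E-ER4 + E2 and 27.5% in G1E, and against them the ratios were 2.21 and 2.83. At equal covered length (described next), the ratios to the far positions were 12.4 and 11.6, so that their order turned.

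**Figure D1:**
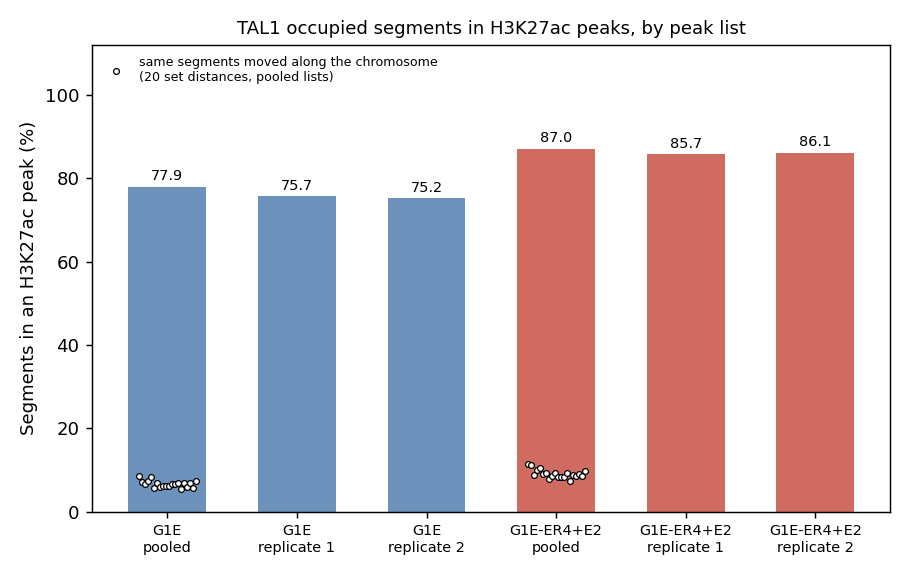
Percent of the 1998 TAL1 OSs in an H3K27ac peak (vertical axis), with 1 bar for each of the 6 peak lists. Open points are the same segments moved by 20 set distances, for the pooled lists: they lie between 5.41% and 8.66% in G1E and between 7.41% and 11.5% in G1E-ER4 + E2, far below every bar.

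The difference between the states moved with the length that the peaks cover. On the chromosomes of the segments, the pooled peaks covered 90.9 Mb in G1E-ER4 + E2 and 61.5 Mb in G1E. Over the whole genome, the replicate lists covered 126 and 113 Mb in G1E, and 163 and 161 Mb in G1E-ER4 + E2. When the treated peaks of lowest enrichment were dropped until both pooled lists covered 140 Mb, 1538 segments (77.0%) were marked in G1E-ER4 + E2 and 1557 in G1E. With every replicate list cut to 113 Mb, the treated replicates marked 1491 and 1496 segments and the untreated ones 1430 and 1503, so that the states overlapped, with a mean difference of 27 segments (exact two-sided permutation test, p = 1.0). Read counts are not part of the lists, which leaves the depth behind them unknown, and the part that depth has in the covered length was not tested.

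By the pooled lists, 1476 TAL1 OSs (73.9%, exact 95% interval 71.9% to 75.8%) were marked in both states, against 4.74% of moved positions. Marking in G1E-ER4 + E2 only was found for 263 (13.2%, interval 11.7% to 14.7%), against 4.4% of moved positions, and marking in G1E only for 81 (4.05%, interval 3.23% to 5.01%), against 1.96%. The remaining 178 (8.91%, interval 7.70% to 10.2%) were marked in neither, against 88.9% of moved positions. Against these far positions, marking in both states was 15.6 times the background, and the classes of a single state were 2.99 and 2.06 times it, or 4.65 and 4.12 times it at equal covered length. Against positions 10 to 100 kb away, of which 22.2% were in both states, 17.3% in the treated state alone and 5.32% in the untreated state alone, the ratios were 3.33, 0.762 and 0.761. As shares of all positions, the TAL1 OSs were thus more often marked in both states than their own surroundings. In the lists as deposited, they were not more often marked in a single one. The shares add up to the whole, so the larger share in both states left less room for the other classes. Marking in the treated state alone was 13.2% against 8.91% in neither at the segments, and 17.3% against 55.2% at the near positions. Marking in the untreated state alone was 4.05% against 8.91%, and 5.32% against 55.2%. The near positions were not computed at equal covered length. These intervals are Clopper-Pearson intervals that cover the counting of segments only.

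The classes held in the replicates. The call was the same in all 4 replicate lists for 1364 of the segments in both states (92.4%), 229 of those in G1E-ER4 + E2 only (87.1%), 58 of those in G1E only (71.6%) and 164 of those in neither (92.1%). In all, 1815 segments (90.8%) had the same class in every replicate, and 1364 (68.3%) lay in a peak of all 6 lists. Replicates of 1 state disagreed on 51 segments in G1E-ER4 + E2 and on 82 in G1E. The call seldom turned on the edge of a peak: 1724 segments lay wholly inside a treated peak and 15 at its edge, and for G1E peaks these counts were 1521 and 36.

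Segments marked in G1E-ER4 + E2 only (gains, for short) outnumbered those marked in G1E only (losses) by 3.25 to 1, and by 3.95 to 1 among those with the same call in all 4 replicates. Far moved positions gave 2.24 to 1, and positions 10 to 100 kb away gave 3.24 to 1, close to the ratio of the segments. At equal covered length, 204 segments gained the mark and 223 lost it, a ratio of 0.915, and the far moved positions gave 0.810. The excess of gains in the lists as deposited was therefore not present at equal covered length.

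Where a TAL1 OS was marked, the mark was centred near it but reached well beyond. In the pooled G1E-ER4 + E2 list, 86.9% of the segment centres lay in a peak, and so did 74.8% of positions 2 kb away, 58.9% at 5 kb, 49.5% at 10 kb, 33.2% at 50 kb and 24.5% at 100 kb. In the pooled G1E list the values were 77.5% at the centre, 61.2% at 2 kb, 44.0% at 5 kb, 34.5% at 10 kb, 21.9% at 50 kb and 16.9% at 100 kb. The share fell steeply within 5 kb and slowly after that, and at 100 kb it was still above the background of moved positions in both states. At 10 kb the treated replicates gave 43.5% and 41.2% and the untreated replicates 32.8% and 27.4%.

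**Figure D2:**
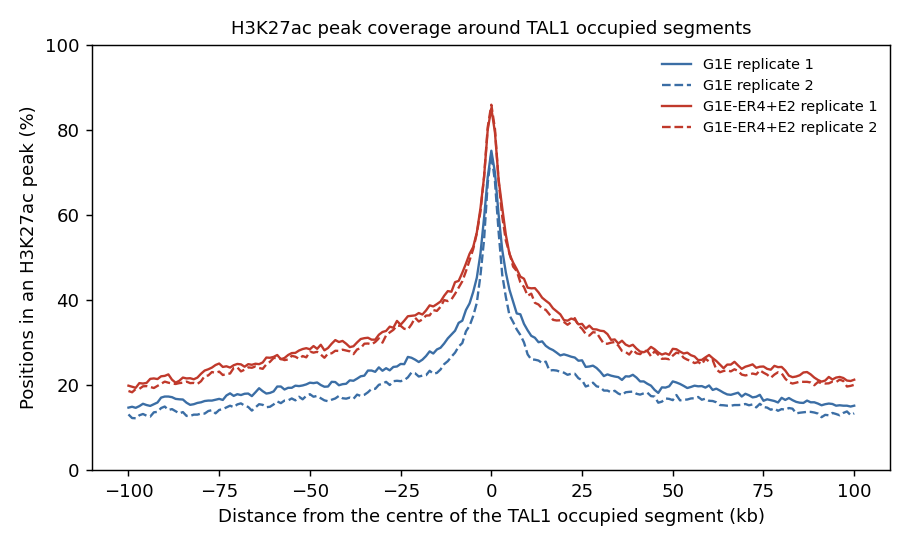
Percent of positions in an H3K27ac peak (vertical axis) against the distance in kb from the centre of the TAL1 OSs (horizontal axis), with 1 line for each replicate. Both G1E-ER4 + E2 replicates (85.0% and 85.9% at the centre) lie above both G1E replicates (75.1% and 74.3%), and they stay above them out to 100 kb (20.6% and 19.3% against 14.9% and 13.2%).

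Within its peak, a TAL1 OS tended toward the middle. The median distance to the nearer edge was 0.324 of the peak width in the pooled G1E-ER4 + E2 list and 0.331 in the pooled G1E list, where even placement gives 0.25. The 4 replicates gave 0.326 to 0.336. The 20% of the peak width nearest to its edges held 5.01% of the segments in G1E-ER4 + E2 and 6.01% in G1E, and the middle 20% held 27.6% and 30.7%.

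Of the TAL1 OSs marked in both states, 5 are named for the highest enrichment over them in the treated list. Enrichment is the authors' linear ratio for a peak, and it is compared only within a list, by the percentile among all peaks of that list. TAL1_426 (chr10:61795200-61795816) had an enrichment of 25.7 in the pooled G1E-ER4 + E2 list (percentile 99.9) and of 33.6 and 33.2 in its replicates. In G1E cells it had 26.3 in the pooled list (percentile 98.5) and 23.5 and 28.5 in the replicates, so that it ranked near the top in both states. The peak over it was 37.8 kb wide in G1E-ER4 + E2 and 22 kb in G1E.

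TAL1_750 (chr11:76652036-76652444) and TAL1_421 (chr10:57908498-57908832) were likewise near the top of the pooled lists of both states, TAL1_750 at percentile 99.8 in G1E-ER4 + E2 and 99.6 in G1E, and TAL1_421 at 99.7 and 97.8. In the G1E replicates, TAL1_421 stood lower, at percentiles 90.01 and 96.7. TAL1_750 lay in a peak of 15.0 kb in G1E-ER4 + E2 and of 14.2 kb in G1E. TAL1_421 lay in a peak of 8.6 kb in G1E-ER4 + E2 and of 9.4 kb in G1E. These peaks changed little in width.

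TAL1_1463 (chr14:71021170-71021662) differed more between the states. Its treated peak, which also holds TAL1_1464, had an enrichment of 20.7 (percentile 99.7), with 23.4 and 31.1 in the replicates. Its untreated peak had an enrichment of 3.71 (percentile 34.5), with 3.16 and 5.25 in the replicates. The peak was 10.8 kb wide in G1E-ER4 + E2 and 6.0 kb in G1E, so the segment was marked in both states but stood at very different ranks. TAL1_1923 (chr17:26374490-26375002) went from percentile 77.2 in G1E to 99.7 in G1E-ER4 + E2. Both segments were named for high treated enrichment, so their high treated rank was set by the choice.

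Over all 1476 segments marked in both states, the peak was wider in G1E-ER4 + E2 for 1004 (68.0%) and narrower for 445. The median ratio of widths was 1.49, with medians of 17 kb and 10.8 kb. In replicate 1 the wider share was 60.7% with a median ratio of 1.20, and in replicate 2 it was 65.5% with a ratio of 1.32. The median percentile of the peak was 79.5 in G1E-ER4 + E2 and 66.3 in G1E. The treated lists also cover more length in all, and whether the widening was particular to the TAL1 OSs was not tested.

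The 263 TAL1 OSs marked in G1E-ER4 + E2 only were of 2 kinds by their peaks. For 143 (54.4%), the treated peak met no G1E peak at all, and these peaks had a median width of 4.8 kb. For the other 120, the treated peak also met a G1E peak somewhere along its length, and the median width was 25 kb. In this second kind the nearest G1E peak was a median of 3531 bp away from the segment. In the first kind the treated peak stood alone, and in the second it reached past a G1E peak to the segment.

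TAL1_431 (chr10:69589712-69590656) was the segment with the highest enrichment in this class. It lay in a treated peak of 54.0 kb with an enrichment of 14.7 (percentile 98.9), and in peaks of 54.4 and 30.8 kb in the replicates. The nearest G1E peak of the pooled list was 2944 bp away. TAL1_955 (chr11:116399369-116399952) and TAL1_887 (chr11:102229517-102230154) were also close to G1E peaks, at 2568 and 2516 bp.

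TAL1_419 (chr10:57817184-57817809) lay in a treated peak of 32.6 kb, 12191 bp from the nearest G1E peak. TAL1_682 (chr11:57797329-57797973) lay in a peak of 38.8 kb in the pooled list, but of 9.8 and 9.6 kb in the replicates. It was 20128 bp from the nearest G1E peak. All 5 had a peak in both treated replicates and in neither untreated one, as the rule for naming them required. Of the transfected segments shown above, TAL1_1020 lay in a treated peak of 80.6 kb (80.8 and 65.8 kb in the replicates), 19432 bp from the nearest G1E peak.

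The 81 TAL1 OSs marked in G1E only were in separate peaks more often. For 68 (84.0%), the G1E peak met no treated peak, and these peaks had a median width of 5.0 kb. The remaining 13 lay in G1E peaks that also met a treated peak, with a median width of 13.8 kb. The peaks over this class stood at a median percentile of 48.8 in the G1E list, below that of segments marked in both states (66.3 in the same list).

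TAL1_1298 (chr13:84787475-84788108) had the highest G1E enrichment of the class, 20.4 in the pooled list (percentile 95.5) and 16.0 and 28.9 in the replicates. The nearest peak of the pooled treated list was 2674 bp away. TAL1_1877 (chr17:9062083-9062520) was the farthest of the named ones from pooled treated peaks: it lay in a G1E peak of 10.2 kb with an enrichment of 18.8, and the nearest pooled treated peak was 553082 bp away. No peak of the pooled treated list met any of its G1E peak.

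TAL1_966 (chr11:117197499-117197875) lay in the widest of these G1E peaks, at 47.4 kb in the pooled list and 38.6 and 24.4 kb in the replicates. It was 190698 bp from any peak of the pooled treated list. TAL1_632 (chr11:44282978-44283385) lay in a peak of 8.4 kb in all 3 G1E lists, and TAL1_509 (chr10:88555034-88555780) in peaks of 3.6 to 6.2 kb. The nearest peaks of the pooled treated list were 26415 and 263833 bp from them. The transfected segments TAL1_1515 and TAL1_1578 were 203603 and 203920 bp from a pooled treated peak, and both were bound by TAL1 in the treated cells without the mark there.

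The 178 TAL1 OSs in neither state were mostly far from H3K27ac. The nearest peak of any of the 6 lists was a median of 21797 bp away, and 43 of them were over 100 kb away. At the other end, 14 met a peak of a replicate list only, and 12 more were within 2 kb of a peak. TAL1_174 (chr1:125217691-125218056) was the farthest, at 1476544 bp, followed by TAL1_614 (chr11:24999786-25000299) at 928585 bp and TAL1_237 (chr1:151175677-151176094) at 841276 bp. These segments were shorter, with a median of 511.5 bp against 622.5 bp for those in both states. The 4 segments over 2 kb were all in neither, and with the midpoint of the segment as the test, which does not depend on its length, 180 were in neither.

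TAL1 OSs that lay close together were more often marked. Of the 398 segments within 5 kb of another, 86.4% were marked in both states and 1.51% in neither. Of the 148 that were over 500 kb from another, 51.4% were marked in both and 29.1% in neither. The classes between changed in the same order, with 78.8%, 72.6% and 64.8% in both states from 5 to 20 kb, 20 to 100 kb and 100 to 500 kb. Marking in G1E-ER4 + E2 only had no such order, at 8.29% under 5 kb, 15.6% at 100 to 500 kb and 11.5% over 500 kb.

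Close segments can share a peak and are then not separate cases. In G1E-ER4 + E2, 693 of the marked segments (39.9%) shared their peak with another, and in G1E 536 did (34.4%). The peak with the most was chr12:106220001-106291600, 71.6 kb wide in G1E-ER4 + E2, which held 8 segments, TAL1_1146 to TAL1_1153. All 8 were marked in both states, and the peak met 3 peaks of the pooled G1E list. In the treated replicates its span met 2 and 3 peaks, so that it was unbroken in the pooled list alone. The treated peak chr14:79877201-79959200 held 7 segments, all marked in both states, and met 8 pooled G1E peaks, with 1 and 4 peaks in the treated replicates.

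The treated peak chr14:69876601-69944800, 68.2 kb wide, held 7 segments, TAL1_1451 to TAL1_1457. Of these, 3 were marked in both states and 4 in G1E-ER4 + E2 only. It met 4 peaks of the pooled G1E list and 2 peaks of each treated replicate. Within 1 peak of the pooled treated list, then, some TAL1 OSs were acetylated in both states and others in the treated state only.

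A pair of TAL1 OSs overlapped segments that the study had named for Btg2, an antiproliferative gene. TAL1_212 (chr1:135989196-135989689) and TAL1_208 (chr1:135969116-135970393) shared a treated peak of 58.6 kb with an enrichment of 6.34 (percentile 83.7). In G1E, TAL1_212 lay in a peak of 11.4 kb at the median rank of its list, and TAL1_208 in a separate peak of 2.2 kb at percentile 7.11. Both were thus marked in both states, in 1 broad treated peak and in separate, narrower untreated ones. For TAL1_1050 (chr12:58298498-58299143), also marked in both states, the forward primer lies in the RefSeq promoter window of Slc25a21, a mitochondrial carrier of oxodicarboxylates, in GRCm38.p6.

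Seen from the peaks, those that held a TAL1 OS were broader and, over all widths, ranked higher. On these chromosomes, 1316 pooled G1E-ER4 + E2 peaks (11.8%) held at least 1, with a median width of 12.8 kb against 4.4 kb for the others and a median percentile of 73.0 against 43.0. Of the pooled G1E peaks, 1247 (12.4%) held at least 1, with a median width of 8.8 kb against 3.4 kb and a median percentile of 63.4 against 43.7. The share that held one rose with width, from 2.28% of treated peaks under 2 kb to 51.9% of those of 20 kb or more, and from 2.33% to 59.6% in G1E. A wider peak has more room for a segment, and the part of width alone was not tested. In each state the replicates had the same order of widths. The higher rank was not seen among pooled peaks under 2 kb, where the median percentile of peaks with a segment was 40.3 against 54.3 in G1E-ER4 + E2 and 30.3 against 33.4 in G1E. In the treated replicates it was 46.1 against 44.8 and 50.6 against 47.6 at this width, and in the untreated ones 30.7 against 39.0 and 22.6 against 29.6. At 2 to 5 kb, G1E replicate 2 did not show it either, at 40.7 against 40.9.

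**Figure D3:**
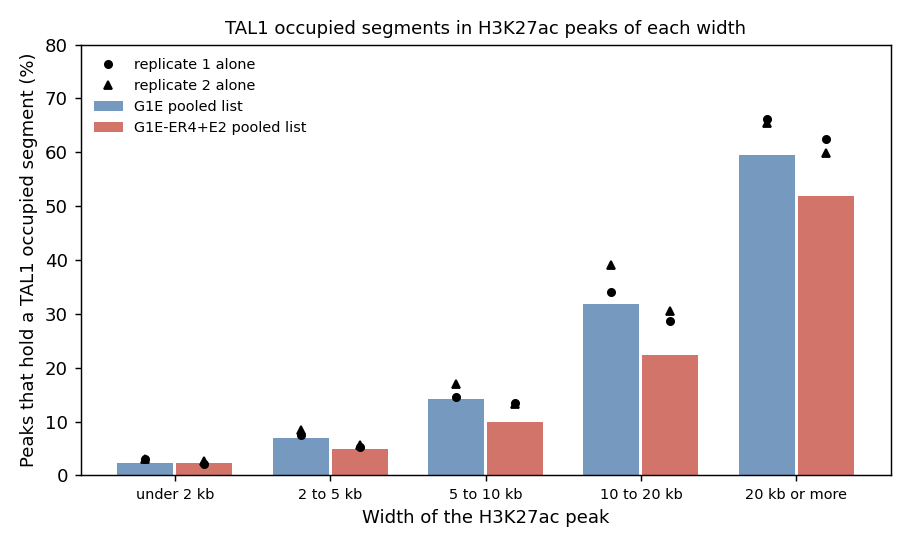
Percent of H3K27ac peaks that hold at least 1 TAL1 OS (vertical axis) by the width of the peak (horizontal axis), as bars for the pooled lists and as points for each replicate. The share rises over the width classes in both states and reaches 59.6% of G1E peaks and 51.9% of G1E-ER4 + E2 peaks of 20 kb or more.

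Peaks with a TAL1 OS were also less often found in 1 state only. Of the treated peaks that held one, 10.6% met no G1E peak, against 46.0% of the treated peaks that held none. In the replicates, the values were 14.2% and 13.6% against 50.7% and 47.9%. Of the G1E peaks that held one, 4.97% met no treated peak, against 32.6% of the others, and in the replicates 5.51% and 5.83% against 30.4% and 34.7%. The order was the same within each width class: for treated peaks of 2 to 5 kb it was 27.5% against 56.3%, and for those of 10 to 20 kb 4.56% against 24.8%. For G1E peaks it was 8.00% against 34.8% at 2 to 5 kb and 2.56% against 7.84% at 10 to 20 kb. Except under 2 kb, the pooled peaks that held a segment also ranked higher within their width class. At 2 to 5 kb their median percentile was 54.3 against 33.1 in G1E-ER4 + E2 and 42.5 against 35.0 in G1E. The part of rank was not tested, and these shares were not computed at equal covered length.

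**Figure D4:**
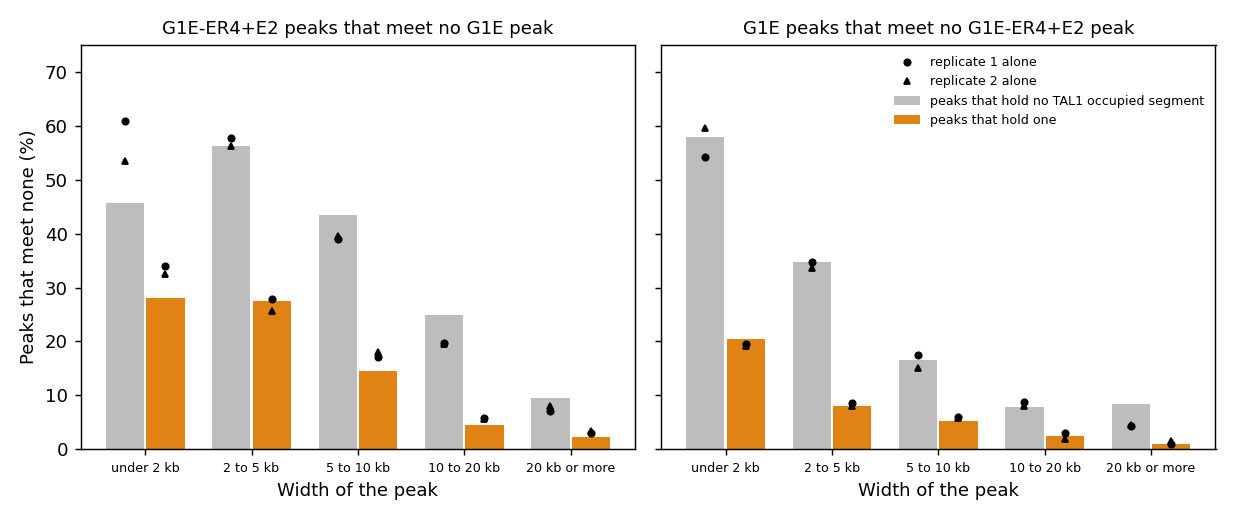
Percent of H3K27ac peaks that meet no pooled peak of the other state (vertical axis) by the width of the peak (horizontal axis), for peaks that hold a TAL1 OS (orange) and peaks that hold none (grey), with points for each replicate list. In every width class of both states the orange bar is the lower one, for example 14.5% against 43.5% for G1E-ER4 + E2 peaks of 5 to 10 kb.

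The study also listed ChIP-seq signals of TAL1, GATA1, H3K4me1 and H3K4me3 in G1E-ER4 + E2 cells for 1891 of the 1998 segments. They were used here only to sort the segments, into 4 groups of equal size for each factor or by which H3K4 mark was higher. From the group of lowest to that of highest GATA1 signal, the share marked in both states was 53.1%, 76.3%, 80.8% and 85.6%. The share marked in G1E-ER4 + E2 only fell in the same order, at 18.4%, 15.3%, 11.4% and 8.25%. Segments in neither were 22.8% of the lowest group and 4.02% to 4.24% of the others. Marking in G1E only fell in the same order too, at 5.71%, 4.24%, 3.81% and 1.90%. As shares of their group, the TAL1 OSs with the least GATA1 in treated cells were therefore most often without H3K27ac. They were also most often marked in a single state, in either direction, but a larger share in both states leaves less room for other classes. Among segments not marked in G1E, those in the treated state alone were fewer than those in neither in the lowest group (87 against 108). In the next groups they were more numerous (72 against 20, 54 against 19 and 39 against 20). None of this was computed at equal covered length.

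The TAL1 signal gave the same order for marking in both states and in the treated state alone, with 63.8%, 69.5%, 78.4% and 83.9% marked in both states, and 18.0%, 16.7%, 10.4% and 8.25% in G1E-ER4 + E2 only. Marking in G1E only did not keep it, at 4.23%, 5.30%, 4.23% and 1.90%. By the width of the segment, in 4 groups of about equal size, marking in both states rose from 63.2% of the shortest to 85.3% of the longest, while the classes of a single state did not fall at every step. Signal and width were not separated here. In the group of lowest GATA1 signal, the replicates marked 68.7% and 68.5% in G1E-ER4 + E2 and 56.2% in each G1E replicate, and in that of highest signal 93.4% and 94.7% against 86.9% and 85.6%.

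Segments sorted by which H3K4 signal was higher differed in the change between states. H3K4me1 was above H3K4me3 at 1613 segments, of which 249 (15.4%) gained the mark in G1E-ER4 + E2 and 70 (4.34%) lost it. H3K4me3 was at or above H3K4me1 at 278 segments, of which 3 (1.08%) gained it and 4 (1.44%) lost it. Segments in both states were 74.8% of the first group and 69.1% of the second, and those in neither were 5.46% and 28.4%. Where H3K4me3 was at or above H3K4me1, H3K27ac was thus nearly always either in both states or in neither. The order of the signals does not give the level of either, so this group is not a set of promoters. Of the 473 segments in the group of highest H3K4me3 signal, 85.2% were in both states and 9.73% in neither.

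By replicate, the 1613 segments with more H3K4me1 were marked 1236 and 1224 times in G1E and 1431 and 1440 times in G1E-ER4 + E2. The 278 with H3K4me3 at or above it were marked 196 times in each G1E replicate and 194 and 195 times in the G1E-ER4 + E2 replicates. At equal covered length, the first group had 195 gains and 192 losses of the mark, and the second had 3 and 10. The larger number of gains in the first group was not present there, but the small share of single-state marking in the second group was.

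Within the H3K4 groups, the GATA1 order was seen where H3K4me1 was higher. Among segments with more H3K4me1, marking in both states went from 55.8% to 86.6% from the lowest to the highest GATA1 group, and marking in G1E-ER4 + E2 only from 24.3% to 9.90%. Among the 278 others there was no such order: marking in both states was 31.4% in the lowest GATA1 group and 81.2%, 84.1% and 80% in the next ones, and marking in G1E-ER4 + E2 only was found in 1 group alone, for 3 segments. In their lowest GATA1 group (70 segments), 67.1% were in neither state, against 11.6% to 18.8% of the other groups. That was the highest share in neither, but its 47 segments were fewer than the 52 in neither in the lowest GATA1 group with more H3K4me1.

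**Figure D5:**
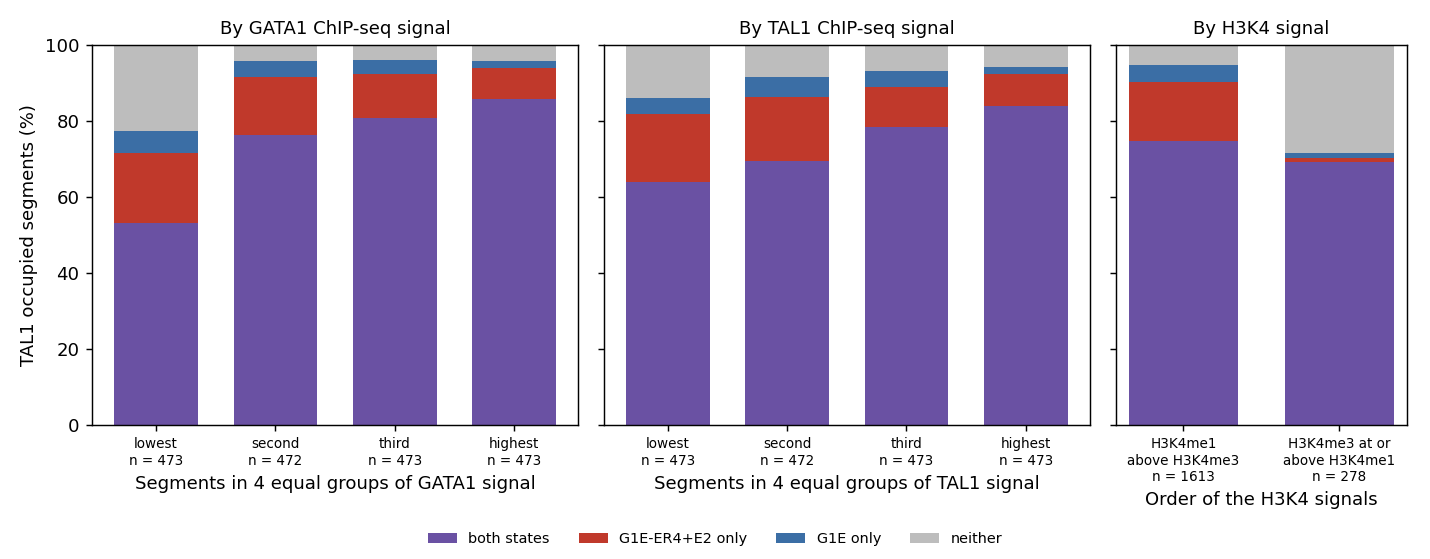
Percent of TAL1 OSs (vertical axis) marked in both states, G1E-ER4 + E2 only, G1E only or neither, in 4 groups of equal size by GATA1 signal, the same by TAL1 signal, and by the order of the H3K4me1 and H3K4me3 signals (n under each bar). The share in both states rises from 53.1% to 85.6% over the GATA1 groups, and the red and blue parts shrink to 1.08% and 1.44% where H3K4me3 is at or above H3K4me1.

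Between chromosomes, the share marked in both states varied little, from 70.8% (chromosome 10) to 77.1% (chromosome 1), and the smaller classes varied more. Marking in G1E-ER4 + E2 only ranged from 9.38% (chromosome 1) to 17.3% (chromosome 16), marking in G1E only from 1.39% (chromosome 14) to 5.35% (chromosome 13), and marking in neither from 5.13% (chromosome 16) to 12.5% (chromosome 14). In the lists as deposited, gains of the mark outnumbered losses on all 9, which was not computed at equal covered length, where losses were the more numerous in all. The segments that the study tested were of all 4 classes. Of the 32 transfected, 23 were marked in both states, 3 in G1E-ER4 + E2 only, 2 in G1E only and 4 in neither, and of the 31 tested in transgenic mice the counts were 25, 4, 1 and 1. The tested segments were few, and their shares in both states (71.9% and 80.6%) lay on either side of the 73.8% of the 1940 not tested.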

How the data were processed

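H3K27ac ChIP-seq of 2 replicates each of G1E and G1E-ER4 + E2 cells was used as 6 deposited lists of broad peaks. The submitters' processing notes name bcl2fastq 1.8.4, Bowtie 1.0.0, SICER 1.1 and the build mm9. The control, window and gap settings and the way replicates were pooled are not given in the sources used here. For each peak the deposited lists give the fold enrichment by the authors' caller, a linear ratio, with its p-value and q-value. All q-values were at most 0.00999, and all borders fell on multiples of 200 bp. The p-values were not used. Without read counts in the lists, the depth is unknown. No column was left unmapped.

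TAL1 OSs, primers, the signals used for sorting, and the positions of gene-named and of tested segments came from the study's supplementary tables, of which 1998 rows of the full list were at hand. Other rows were not analysed here. No other values of these tables were used. A segment was marked with at least 1 bp in a peak. Moved positions were the same segments shifted by 20 multiples of 4 Mb along the chromosome, wrapped at the outermost peaks, a description without a test. Peaks of chromosome 17 beyond the last segment at hand were left out of counts of peaks with and without a segment. States were compared over replicates with the exact two-sided permutation test in SciPy 1.17.1, threshold 0.05. Named segments were, among those with the same call in all 4 replicates, the 5 of highest enrichment in each marked class, without repeating a peak, the 3 farthest from any peak, the groups in the 3 fullest peaks, those overlapping gene-named tested segments, and up to 2 transfected ones a class. TAL1_1050 was named outside this rule, after its values were seen. The members, lists and rules were chosen with earlier results of these data known. Alternatives were single replicates, both or either replicate, each replicate left out, 50% or midpoint overlap, stricter q-value or enrichment, equal covered length, subsets of segments and other shifts. The calls were tested on simulated segments. Python 3.11.15, NumPy 2.4.6, pandas 2.3.3 and Matplotlib 3.10.9 were used.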

Additional observations from a re-analysis of the deposited data

Results flagged for a closer look

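The difference between states was large in 1 of the groups sorted by H3K4 signal and near 0 in the other, with opposite signs. Where H3K4me1 was above H3K4me3, the treated replicates marked on average 205.5 more of 1613 TAL1 OSs than the untreated ones, and every treated replicate was higher. Where H3K4me3 was at or above H3K4me1, the difference was -1.5 of 278, and every treated replicate was lower, by 1 or 2 segments. As a share of the group's segments, the difference between the groups was 6.12 and 5.38 percentage points in the G1E replicates and 18.9 and 19.1 in the G1E-ER4 + E2 replicates. That difference differed between the states by 13.3 points (exact two-sided permutation test, p = 0.333, the smallest that 2 replicates against 2 can give). A drop of 1.5 segments is too small to call a change. At equal covered length the first group had 195 gains and 192 losses of the mark, so that its excess of gains was not kept there, and the second group had 3 gains and 10 losses. With 2 replicates in each state, replicates far from the others were not tested for.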

How the results depend on the processing

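Of the 6 class counts and totals over the settings tried, the ones that moved beyond 1.5 times were those under a higher enrichment limit and at equal covered length. With only peaks of enrichment from the median of their list upward, 509 segments were in G1E-ER4 + E2 only and 389 in neither. At equal covered length, 223 were in G1E only and 204 in G1E-ER4 + E2 only, so that the order of these classes turned. Leaving out 1 replicate gave 78 to 99 in G1E only, 254 to 317 in G1E-ER4 + E2 only, 1422 to 1465 in both, 178 to 187 in neither, 1503 to 1557 in a G1E peak and 1712 to 1739 in a G1E-ER4 + E2 peak. The difference per replicate was 203.5 to 213.5 with 1 replicate left out. It was 27 (exact permutation p = 1.0) at equal covered length, where replicate 2 turned (1496 treated, 1503 untreated), and 452 with the enrichment limit. With the replicate number as a replicate block, it was again 208.5 (exact permutation p = 0.5, the smallest for 2 pairs). Deviations of same-numbered replicates were hardly correlated over the 1998 segments (0.0316). Replicates of a state gave the same call at most segments, so this value cannot tell whether same-numbered samples were prepared together. Moved positions in a peak were 39.5% (G1E-ER4 + E2) and 27.5% (G1E) with the 8 near distances alone, 9.99% and 7.44% without wrapping, and 6.19% and 6.7% at equal covered length. The last of these and the H3K4 groups at equal covered length were added after seeing the data. The unknown depth limits every comparison between states.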
